A study of Mus musculus with 12 samples.

Results

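The proteasome genes described here were the rows of the expression table whose mouse Ensembl identifier maps to a symbol beginning with Psma, Psmb, Psmc, Psmd, Psme, Psmf or Psmg and a number, which took 50 of 23474 genes. They comprised 7 alpha ring subunits, 7 standard beta ring subunits, 3 induced catalytic subunits (Psmb8, Psmb9 and Psmb10), 2 tissue-specific core subunits, 6 ATPases and 11 non-ATPases of the regulatory particle, 8 assembly chaperones and inhibitors and 4 activators. The pattern also took Psmc3ip, a recombination factor that is no proteasome subunit, and Psme2b, a copy of Psme2. The expression of these genes was measured by RNA-seq in eWAT, the white fat around the epididymis, of male C57BL/6J mice aged 17 weeks, housed singly, after 12 weeks on a diet. The ND group received a normal diet and the HFD group a high-fat diet. The GT group received the HFD with 0.25% (w/w) of an ethanol extract of green tea, and the TJ group the HFD with 3% (w/w) of Taeeumjowitang (also written Taeeumjowuitang), a mixture of herbs used in traditional Korean medicine. Each group of 10 mice gave 3 libraries, each from the tissue of a single mouse, and the ND group was the only group without the HFD.

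The proteasome is the protease that degrades proteins tagged with ubiquitin. Its core particle is a barrel of stacked alpha and beta rings, in which Psmb5, Psmb6 and Psmb7 carry the active sites, and its regulatory particle binds, unfolds and feeds in the substrate. In cells stimulated with interferon gamma, newly made cores take up Psmb8, Psmb9 and Psmb10 in place of Psmb5, Psmb6 and Psmb7, and this immunoproteasome, often capped by the PA28 activator of Psme1 and Psme2, generates many of the peptides that TAP1 and TAP2 carry to MHC class I molecules. In adipose tissue, cells of the immune system and adipocytes both hold proteasomes, and RNA from whole tissue does not separate fewer cells of a type from less RNA per cell.

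Expression was given as FPKM, a fragment count scaled for transcript length and library size, at an approximate depth of 10.5M to 21M fragments per library. The tissue label was met by adipocyte marker genes, whose summed level was 17434 to 19919.7 FPKM in the HFD, 24793 to 29192 in the GT and 30884 to 68463 in the TJ group. The ND libraries had 7152, 36100.1 and 24497 FPKM. ND replicate 1 stood apart from the other libraries. Its 10 testis germ cell markers summed to 96699 FPKM, against 176 FPKM in ND replicate 2, 68.9 to 1973 FPKM in the HFD group and 28.8 to 111 FPKM in the GT and TJ groups. In this library, 21 of 48 proteasome genes lay over 2-fold above and 7 over 2-fold below the mean of the other ND libraries. The median coefficient of variation of 47 proteasome genes was 48.5% in the ND group, 8.77% in the HFD, 8.44% in the GT and 15.8% in the TJ group. The counts of proteasome genes that passed or reached an unadjusted p under 0.05 in HFD against ND are therefore also given without ND replicate 1. So are the values of Psmb8 and the folds of the extreme members. The counts of genes without overlap, of marker genes and of the other gene lists are given with it. The 8 epididymal epithelium markers of ND replicate 1 summed to 12779 FPKM. Smaller amounts of germ cell markers were present in ND replicate 3, with 2721 FPKM, and HFD replicate 1, with 1973 FPKM, and of epididymal epithelium markers in HFD replicate 2, with 1352 FPKM.

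Psmb10, the induced partner of Psmb7, was listed at 0 FPKM in all 12 libraries. The table lists 2282 genes at 0 in every library, among them Ppp2ca, Skp1a and Nmt1, which cells of all types use, Cav1, a main component of the caveolae of adipocytes, and Lcat, the neighbour of Psmb10 on chromosome 8, so the listing does not measure its expression. Psmb11, the thymic counterpart of Psmb5, did not exceed 0.0277 FPKM in any library.

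Stretches around the start site that hold a motif match are shown for the catalytic subunits and for members that passed the test in TJ against HFD, because the induced and the standard subunits are known to be driven by different factors. RefSeq windows (build GRCm38.p6, 250 bases before to 50 bases after each start site) were found for 42 of the 50 genes, and none is shown for Psma8, Psmb1, Psmb2, Psmb7, Psmc3, Psmd3, Psmd7 and Psmg2. Both strands were searched for the letters TTCNNNGAA (GAS, the gamma-activated sequence), GAAA, any 2 bases and GAAA again (ISRE, read by interferon regulatory factors), TGACNNNGC (the core of the antioxidant response element, read by NFE2L1 and NFE2L2) and CCAAT (the CCAAT box). None of these motifs overlapped another in the stretches shown, and capitals mark the matches, written 5′ to 3′ on the strand of the gene.
Psmb9 (chr17:34187322-34187351, minus strand, around a CCAAT box): cgcgcagccgctgATTGGaaagccgagccc
Psmb8 (chr17:34198087-34198116, plus strand, around a GAS): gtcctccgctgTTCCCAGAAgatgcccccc
Psme1 (chr14:55578493-55578522, plus strand, around an ISRE): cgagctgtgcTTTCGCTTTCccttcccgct
Psmd4 (chr3:95042675-95042704, minus strand, around an ISRE): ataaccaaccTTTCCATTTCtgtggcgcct
Psmg1 (chr16:95991181-95991210, minus strand, around a GAS): actcatgTTCTCTGAAtccgcttgcagtca
Psmb5 (chr14:54618023-54618245, minus strand, bases before the start outside annotated exons): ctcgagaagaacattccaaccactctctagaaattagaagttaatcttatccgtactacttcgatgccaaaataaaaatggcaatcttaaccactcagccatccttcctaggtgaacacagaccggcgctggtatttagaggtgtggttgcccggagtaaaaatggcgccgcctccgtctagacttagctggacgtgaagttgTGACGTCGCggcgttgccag
Psmb6 (chr11:70525107-70525356, plus strand, bases before the start outside annotated exons): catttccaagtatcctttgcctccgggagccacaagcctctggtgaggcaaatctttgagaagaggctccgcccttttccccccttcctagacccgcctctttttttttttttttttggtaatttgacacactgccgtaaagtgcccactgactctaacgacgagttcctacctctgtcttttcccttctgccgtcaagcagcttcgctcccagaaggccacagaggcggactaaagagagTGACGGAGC
The GAS match of Psmb8 began 97 bases before its start site, and the ISRE match of Psme1 began at base 10 after it. Psmb5 and Psmb6, the standard partners of Psmb8 and Psmb9, each held an antioxidant response core, beginning 47 and 9 bases before the start. An ISRE match occurred in 5 of the 45 windows of proteasome genes (11.1%) and in 3.44% of all 32851 windows, a GAS match in 6.67% and 8.3%, an antioxidant response core in 13.3% and 12.4%, and a CCAAT box in 33.3% and 37.4%. The window of Psmb9 shared 275 bases with that of Tap1, which is transcribed in the opposite direction on chromosome 17. The windows of Psmb10, Psme2, Psmd1 and Psme2b held none of the 4 motifs, and none is shown. These letters are a description of the windows, and no binding was measured.

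Among the catalytic subunits, Psmb9 (ENSMUSG00000096727) differed most between the TJ and HFD groups, and Psmb8 between the HFD and ND groups. It was at 9.0, 14 and 10.7 FPKM in the ND libraries, 14.4, 12.4 and 12.6 in the HFD, 19, 15.8 and 13.2 in the GT and 27.7, 40.3 and 23.6 FPKM in the TJ libraries, in the order of the replicate numbers. All TJ values lay above all other libraries, whereas the ND, HFD and GT values overlapped. Psmb8 (ENSMUSG00000024338) had 0.933, 4.31 and 9.41 FPKM in the ND, 16.6, 13.5 and 15.6 in the HFD, 19.8, 12.3 and 11.4 in the GT and 16.2, 21.5 and 22.1 FPKM in the TJ group. Its 3 ND values lay below those of all other libraries, and the TJ values overlapped with those of the HFD and GT groups.

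The standard partners were expressed at higher levels per length. Psmb5, which carries the chymotrypsin-like activity and is replaced by Psmb8, was at 124, 55.9 and 41.3 FPKM in the ND, 86.4, 66.8 and 83.4 in the HFD, 99.4, 84.7 and 69.7 in the GT and 104, 123 and 90.9 FPKM in the TJ group. Psmb6, with the caspase-like activity and replaced by Psmb9, was at 577, 91.8 and 84.2 FPKM in the ND, 132, 97.5 and 119 in the HFD, 127, 109.9 and 86.4 in the GT and 144, 194 and 116 FPKM in the TJ group. The ND value of 577 FPKM came from ND replicate 1, the library with the germ cell markers. Psmb7, with the trypsin-like activity and replaced by Psmb10, was at 173, 132 and 86.2 FPKM in the ND, 104, 95.3 and 105 in the HFD, 106, 99.4 and 108 in the GT and 99.9, 132 and 112 FPKM in the TJ group. Its TJ and HFD values overlapped, as did those of Psmb6, while every TJ value of Psmb5 exceeded every HFD value.

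**Figure D1:**
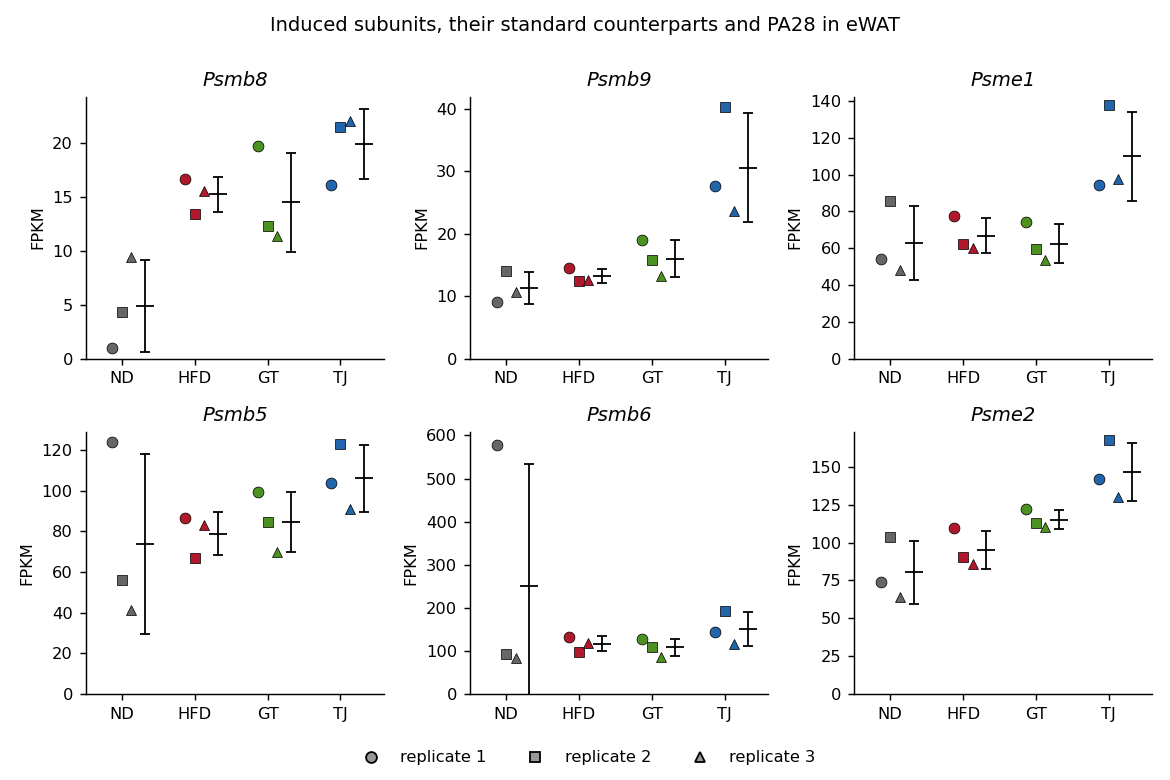
FPKM of Psmb8, Psmb9, Psme1, Psmb5, Psmb6 and Psme2 in the 12 eWAT libraries by group, with 1 point per mouse shaped by replicate number and the mean ± SD (n = 3) beside the points; all axes start at 0, where the bar of Psmb6 in the ND group is cut off. The 3 TJ values of Psmb9 (23.6 to 40.3 FPKM) lie above all other libraries, the 3 ND values of Psmb8 (0.933 to 9.41 FPKM) lie below all others, and Psmb6 reaches 577 FPKM in ND replicate 1.

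The ratio of an induced subunit to its standard partner was compared within libraries, which cancels the scaling of a library. Psmb9 amounted to 10.9, 12.8 and 10.5% of Psmb6 in the HFD libraries, 14.9, 14.4 and 15.2% in the GT libraries and 19.2, 20.8 and 20.4% in the TJ libraries. The TJ and the HFD values did not overlap, nor did the GT and the HFD values. The log2 ratio was 0.82 higher in the TJ than in the HFD group (-2.31 ± 0.06 against -3.14 ± 0.15, SD, n = 3), with an exact two-sided permutation p = 0.1, the smallest that 3 libraries against 3 allow. The adjusted p over the 6 ratio tests was 0.3. Between the GT and HFD groups the difference was 0.38, with the same exact permutation p = 0.1 and an adjusted p of 0.3, and the GT libraries lay between those of the HFD and TJ groups. The ND libraries had 1.56, 15.3 and 12.7%, of which the lowest was ND replicate 1. The HFD to ND difference was 0.76 (exact permutation p = 0.9, adjusted p = 0.9) and turned to -0.29 without that library.

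Psmb8 amounted to 19.3, 20.2 and 18.7% of Psmb5 in the HFD group, 19.9, 14.6 and 16.3% in the GT group and 15.5, 17.4 and 24.3% in the TJ group. These values overlapped between the groups. The log2 ratio differed by -0.05 between the TJ and HFD groups (exact permutation p = 0.9, adjusted p = 0.9) and by -0.21 between the GT and HFD groups (exact permutation p = 0.3, adjusted p = 0.6). In the ND group the ratio was 0.751, 7.71 and 22.8%, and the difference of 1.93 between the HFD and ND groups (exact permutation p = 0.4, adjusted p = 0.6) was 0.55 without ND replicate 1. Over all 4 groups, an exact permutation test gave p = 0.156 for Psmb8 to Psmb5 and p = 0.134 for Psmb9 to Psmb6, with a smallest possible p of 6.5e-05.

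**Figure D2:**
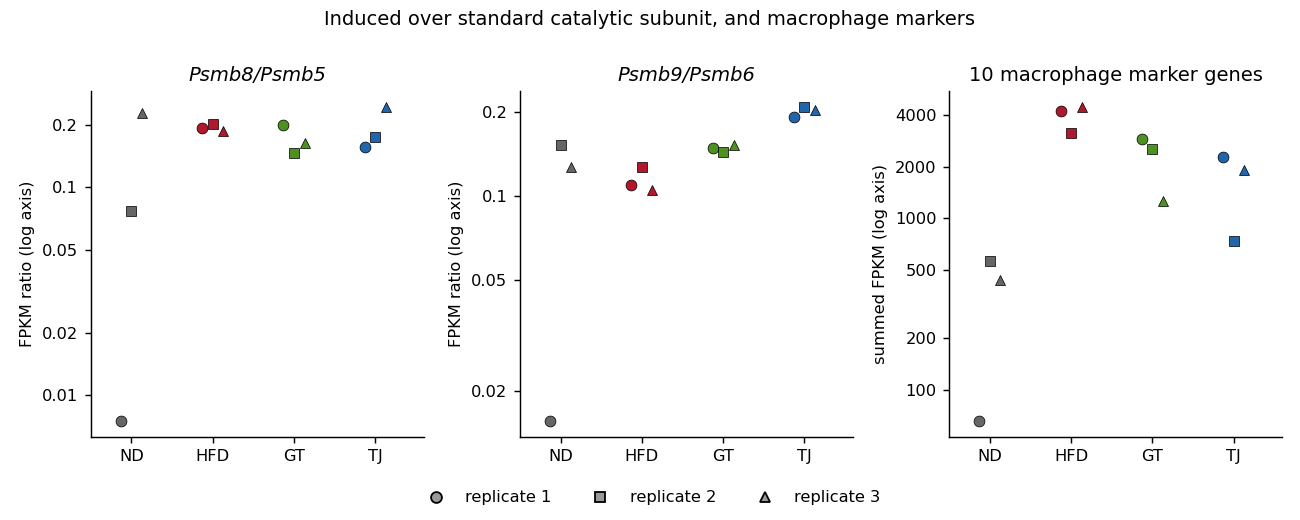
Ratio of FPKM of Psmb8 to Psmb5 and of Psmb9 to Psmb6 (log axes), and the summed FPKM of 10 macrophage marker genes (log axis), with 1 point per mouse shaped by replicate number in each of the 4 groups. The Psmb9 to Psmb6 ratio is highest in the 3 TJ libraries, whereas the macrophage sum is highest in the HFD group (3137 to 4444 FPKM) and, outside the ND group, lowest in TJ replicate 2 (739 FPKM).

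TJ was compared with HFD to ask how the herbal mixture changed eWAT on the same diet. Psmb9 was significantly higher in the TJ than in the HFD group, together with both subunits of the PA28 activator, Psme1 and Psme2, the beta subunit Psmb1, the ubiquitin receptor Psmd4 and the assembly chaperone Psmg1. Psmd1, a scaffold of the regulatory particle, and the copy Psme2b were significantly lower. In limma on log2(FPKM + 1), a gene passed at an adjusted p under 0.05 where it also differed at least 1.5-fold. Of the 47 tested proteasome genes (all but Psma8, Psmb10 and Psmb11), 6 passed as higher and 2 as lower, and of all 12807 tested genes, 7.41% passed as higher and 11.1% as lower. An unadjusted p under 0.05 was reached by 17 proteasome genes and by 41.4% of all genes. The groups did not overlap in 16 proteasome genes that were higher and 9 that were lower in the TJ group, where all genes gave 20.1% and 31.4%. The median log2 fold change was 0.19 over the proteasome genes and -0.14 over all genes. Of all genes, 949 passed as higher and 1417 as lower, against 1285 and 1082 with median-of-ratios scaling and 1543 and 1151 with quantile normalization, where 7 and 1 and 6 and 0 proteasome genes passed. The number of genes that passed depended on single libraries. When HFD replicate 1, 2 or 3 or TJ replicate 1 was left out, 0 proteasome genes and 0 of all genes passed, with 12 to 16 proteasome genes at an unadjusted p under 0.05 in limma. Without TJ replicate 2, Psmb9, Psmd4 and Psme2b passed.

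Psmb9 had the largest difference, with a log2 fold change of 1.12 (SE 0.20, limma adjusted p = 0.0248). It ranged from 0.91 to 1.29 over the alternatives with at least 2 libraries per group, and its limma adjusted p from 0.00825 to 0.113. It did not pass when HFD replicate 1, 2 or 3 or TJ replicate 1 was left out. Psmb8 had 0.36 (SE 0.16, limma adjusted p = 0.138) and did not pass. The position of Psmb9 on chromosome 17 (34181987 to 34187764) overlaps the start of Tap1 on the other strand, so that fragments of either gene cannot be told apart there, as the use of strand in the counting is not given in the sources used here. In all, 13 of the proteasome genes overlap another coding gene, among them Psme1 (Emc9) and Psmd1 (Htr2b).

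The 7 standard beta ring subunits all had positive log2 fold changes, from 0.17 for Psmb7 to 0.67 for Psmb1, with a median of 0.42, and 1 of them passed; with the trend on transcript length removed, Psmb2 turned to -0.14 and Psmb6 to -0.022. Psmb1, a non-catalytic beta subunit, had 79.1, 64.4 and 75.9 FPKM in the HFD and 110.3, 149.6 and 96.5 FPKM in the TJ group (limma adjusted p = 0.0493). All 3 TJ values exceeded the HFD values. Psmb4, also non-catalytic, reached 0.61 with a limma adjusted p of 0.0847. The catalytic Psmb5 and Psmb6 had 0.42 (limma adjusted p = 0.111) and 0.36 (limma adjusted p = 0.248). TJ replicate 2 held the highest TJ value in all 7 subunits and in 35 of the 47 tested proteasome genes, and it was also the library with the highest adipocyte marker sum, 68463 FPKM. The part of this library's composition in the values was not tested.

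None of the 7 alpha ring subunits, which form the outer rings and the gate, passed in limma or had an unadjusted p under 0.05, and their median log2 fold change was 0.17. Psma7 was highest at 0.40, with 104, 88.1 and 91.5 FPKM in the HFD and 109, 179.7 and 99.4 FPKM in the TJ group. Psma6 was lowest, with 152, 116 and 119 FPKM in the HFD and 112, 137 and 118 FPKM in the TJ group. Psma7 and Psma6 both overlapped between the groups. The highest HFD value of Psma6, 152 FPKM, came from HFD replicate 1, the HFD library with the most germ cell markers. Psma8, an alpha subunit made in male germ cells, had 3.55, 0.651 and 0.70 FPKM in the HFD and 0.289, 0.261 and 0.435 FPKM in the TJ group and was below the filter of a mean of 1 FPKM.

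Of the regulatory particle, none of the 6 ATPases, the motor that unfolds substrates, passed in limma, with Psmc5 at an unadjusted p under 0.05, and their median log2 fold change was -0.01. Psmc5 was highest, at 74.4, 59.1 and 61.2 FPKM in the HFD and 82.2, 109.9 and 76.9 FPKM in the TJ group (0.45, limma adjusted p = 0.107). Psmc4 was lowest, at 68.3, 54.7 and 68.8 FPKM in the HFD and 51.5, 68.2 and 53.9 FPKM in the TJ group. Only the values of Psmc5 and Psmc1 were apart between the groups, both higher in the TJ group. Among the 11 non-ATPases the median was -0.10, with 1 member passing as higher and 1 as lower. Without overlap, 5 of them were lower in the TJ group (Psmd1, Psmd6, Psmd11, Psmd12 and Psmd14) and 1 was higher (Psmd4). Over all genes, 31.4% were lower and 20.1% higher without overlap. Psmd4, which binds ubiquitin chains, was at 93, 72.1 and 78.9 FPKM in the HFD and 134, 202 and 117 FPKM in the TJ group (0.85, SE 0.23, limma adjusted p = 0.0424). Psmd1 was at 53.5, 56.7 and 57.9 FPKM in the HFD and 37.1, 29.7 and 43.1 FPKM in the TJ group (-0.62, SE 0.16, limma adjusted p = 0.0419). Psmd11, a lid subunit, had a limma adjusted p of 0.0419 but a log2 fold change of -0.48, under the fold limit.

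Of the 8 assembly chaperones and inhibitors, 1 passed and the median was 0.43. Psmg1, which with Psmg2 guides the assembly of the alpha ring, was at 15.3, 14.4 and 12.3 FPKM in the HFD and 22.6, 32.1 and 19.4 FPKM in the TJ group (0.75, SE 0.20, limma adjusted p = 0.0433). Its partner Psmg2 had 0.47 (limma adjusted p = 0.0381), under the fold limit. Psmf1, a proteasome inhibitor, was lowest in this group of genes, with 31.2, 11 and 12.3 FPKM in the HFD and 12.3, 16 and 15.2 FPKM in the TJ group, and its values overlapped. Its 31.2 FPKM came from HFD replicate 1, the HFD library with the most germ cell markers, so its place as lowest rests on that library.

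The 4 activators split. Psme1, whose window holds the ISRE letters shown above, was at 77.7, 62.3 and 60.3 FPKM in the HFD and 94.5, 138 and 97.5 FPKM in the TJ group (0.70, SE 0.19, limma adjusted p = 0.0454). Psme2 was at 109.7, 90.4 and 85.7 FPKM in the HFD and 142, 168 and 129.9 FPKM in the TJ group (0.62, SE 0.16, limma adjusted p = 0.042). Every TJ library lay above every HFD library for both. Psme3, which forms a nuclear activator of its own, had 38.5, 39.6 and 38.4 FPKM in the HFD and 29.3, 22.3 and 28.9 FPKM in the TJ group (-0.53, limma adjusted p = 0.0447, under the fold limit). Psme4, a single-chain activator that also acts in the nucleus, had 32.5, 33.3 and 28.9 FPKM in the HFD and 21.9, 14.6 and 27.4 FPKM in the TJ group (-0.59, limma adjusted p = 0.0952). For these genes the TJ values were all below the HFD values. Psme2b, the copy of Psme2, had a lower level in the TJ group, with 2.79, 3.51 and 3.19 FPKM in the HFD and 1.29, 0.411 and 1.69 FPKM in the TJ group (-1.01, limma adjusted p = 0.0449). Its fragments can be shared with Psme2 and with the coding genes that overlap it on the same strand, so its values are uncertain.

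**Figure D3:**
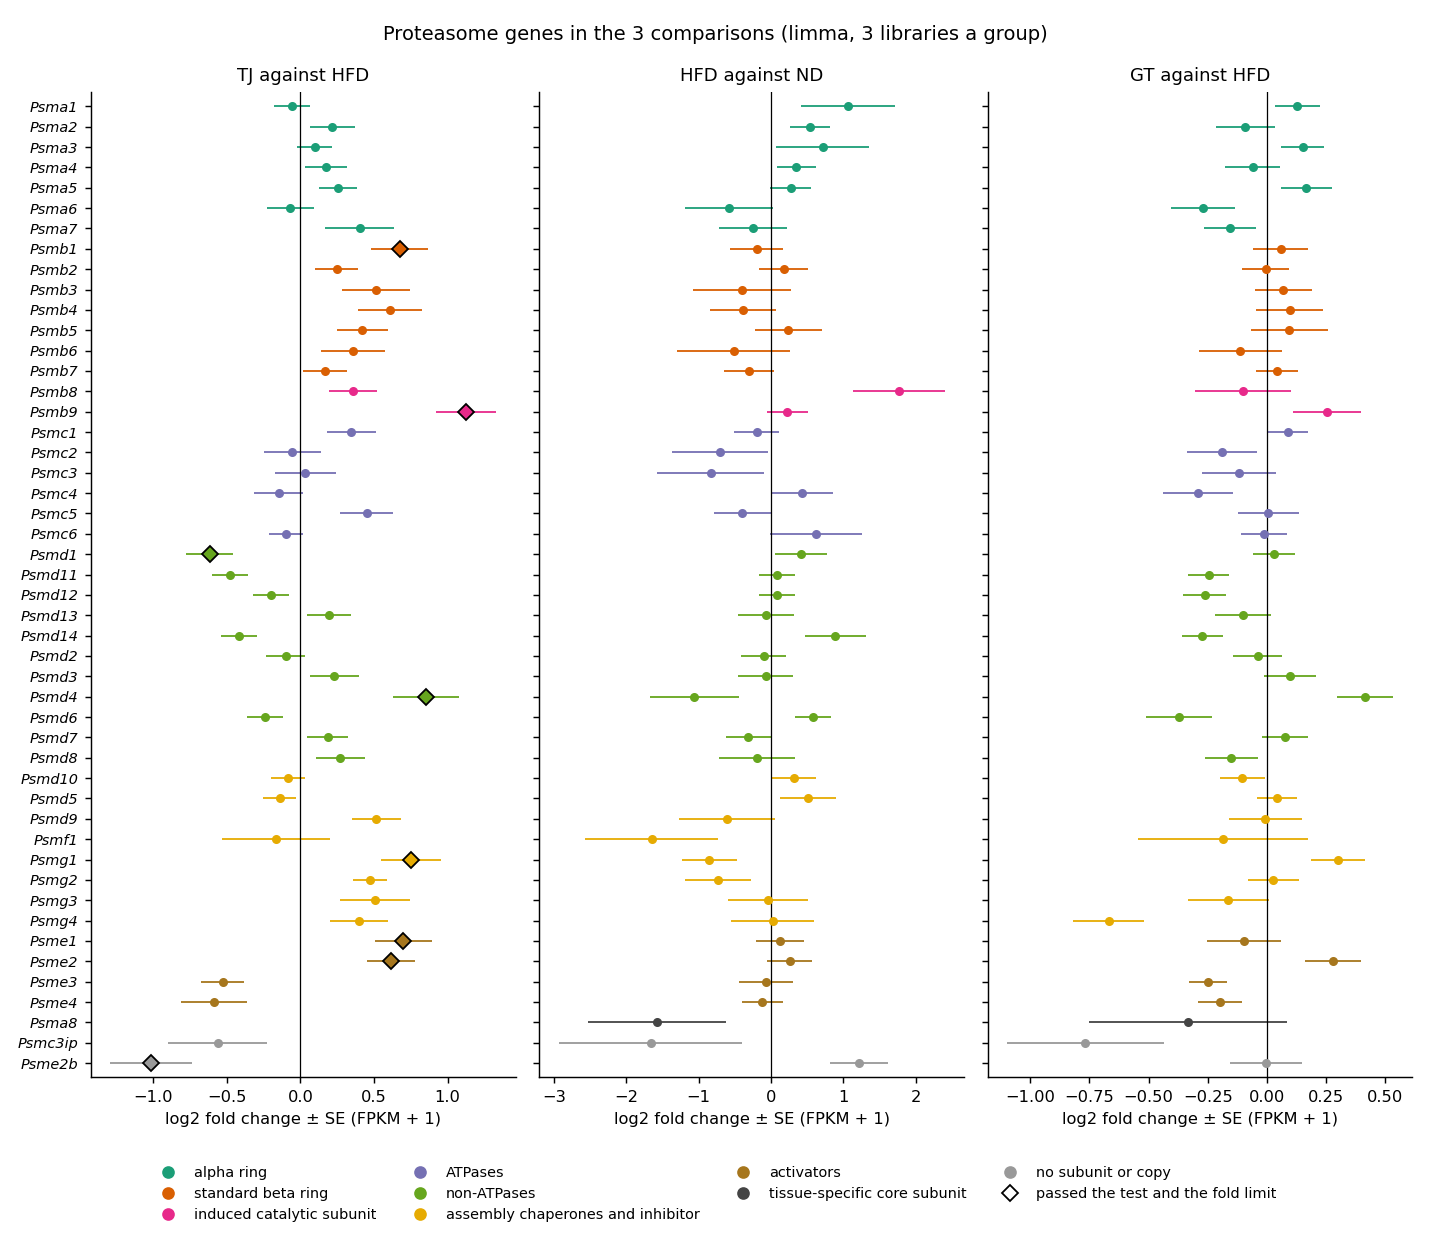
Log2 fold change ± standard error (limma, log2(FPKM + 1), 3 libraries per group) of the tested proteasome genes, coloured by their place in the complex, in the comparisons TJ against HFD, HFD against ND and GT against HFD, whose axes differ in scale. Diamonds mark the genes that passed, 6 higher and 2 lower in TJ against HFD and 0 in the other comparisons, and the 7 standard beta ring subunits lie right of 0 in TJ against HFD, of which Psmb2 and Psmb6 turned negative with the length trend removed.

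Fold changes in TJ against HFD were lower for longer transcripts. Across 12725 genes, the log2 fold change and the length of the longest transcript had a Spearman correlation of -0.33, and across the 47 proteasome genes of -0.25 (genes are no independent replicates, and the libraries are shared). Proteasome transcripts are short, with a median of 1883 nt where that of all genes was 3288 nt. With the trend over all genes removed, the median of the proteasome genes was -0.02, and 1 gene passed as higher and 4 as lower. The share of all genes that passed in that fit is not given here, so these counts are not set against it. Psmb9 was the gene that passed as higher, with a log2 fold change of 1.09, and Psme2b, Psme3, Psmd14 and Psmd1 were those that passed as lower. Psme1, Psme2, Psmb1, Psmd4 and Psmg1 did not pass in that fit, with log2 fold changes of 0.52, 0.24, 0.49, 0.70 and 0.38. The part of RNA length or quality in the differences was not tested.

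**Figure D4:**
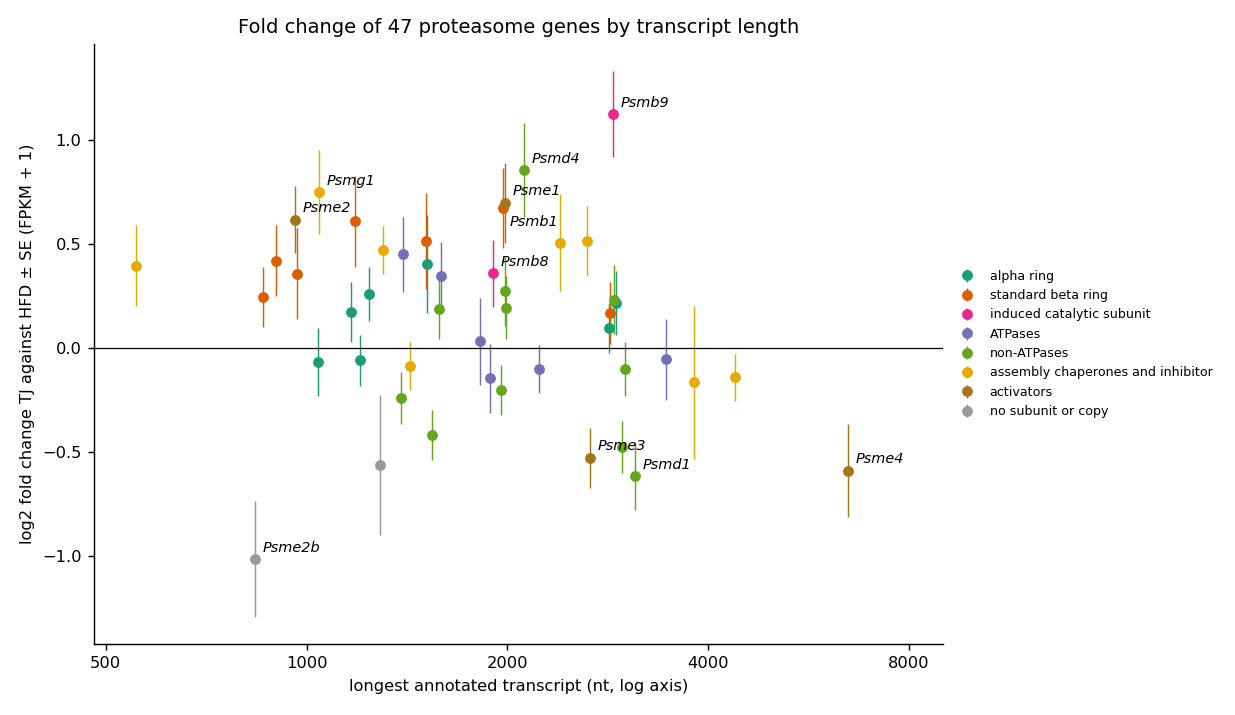
Log2 fold change ± standard error of the 47 tested proteasome genes in TJ against HFD against the length of their longest annotated transcript (log axis), coloured by place in the complex. Shorter genes tend to lie higher (Spearman correlation -0.25), while Psmb9, with a log2 fold change of 1.12, lies at 2884 nt.

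HFD was compared with ND to ask what the high-fat diet changed. No proteasome gene passed in limma with all 6 libraries, with 2 of the 48 tested genes, Psmb8 and Psme2b, at an unadjusted p under 0.05 (11.6% of all genes). Over all 14430 tested genes, 1.73% passed as higher and 0.0416% as lower. The median log2 fold change was -0.06 over the proteasome genes and 0.07 over all genes. Without ND replicate 1, the median was 0.14 over the proteasome genes and -0.024 over all genes. In that fit 13 proteasome genes (27.1%) had an unadjusted p under 0.05, where 30.8% of all genes did. Of the 48 proteasome genes, 1 passed (2.08%), beside 15.4% of all genes. It was the ATPase Psmc4, with a log2 fold change of 0.84 (limma adjusted p = 0.0208).

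Psmb8 had the largest log2 fold change in this comparison, 1.77 (SE 0.63, limma adjusted p = 0.353). Without ND replicate 1, where it was at 0.933 FPKM, the log2 fold change was 1.12 (limma adjusted p = 0.0697). With array weights, which weigh each library by its spread, it passed at a log2 fold change of 0.68 (limma adjusted p = 0.0162). The estimation of these weights stopped before convergence, and in that fit 8 proteasome genes passed as higher and 3 as lower. Psmb9 had 0.23 (SE 0.29, limma adjusted p = 0.679) and Psmb5 had 0.24 (limma adjusted p = 0.782). The groups did not overlap in 8 proteasome genes that were higher and 3 (Psmd4, Psmg1 and Psmg2) that were lower in the HFD group, where all genes gave 20.5% and 5.89%. These counts depend on ND replicate 1. Without it more proteasome genes did not overlap, among them Psmb5 and Psmc4 as higher and Psmc1 as lower. The share of all genes without overlap in that setting is not given here. The 10 macrophage markers were higher in every HFD than in every ND library, with sums of 66.3, 563 and 437 FPKM in the ND and 4229, 3137 and 4444 FPKM in the HFD group, and 4 of them passed, Trem2, Cd68, Itgax and Fcgr1. Their part in the values of Psmb8 was not tested.

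ND replicate 1 held the lowest or the highest ND value of the extreme members of the alpha ring, the beta ring, the regulatory particle and the assembly factors. In the alpha ring, Psma1 was highest with 17.7, 95.8 and 72.1 FPKM in the ND and 110.3, 101 and 106 FPKM in the HFD group, and Psma6 was lowest with 480.1, 109 and 134 FPKM in the ND group. In the beta ring, Psmb5 was highest, which turned to -0.089 without ND replicate 3, and Psmb6 was lowest. Among the ATPases, Psmc6 was highest with 10.5, 56.5 and 42.9 FPKM in the ND and 44.2, 46.3 and 48.7 FPKM in the HFD group, and Psmc3 was lowest with 524, 82.8 and 105 FPKM in the ND and 117, 77.2 and 88.3 FPKM in the HFD group. Psmd14, the enzyme that removes ubiquitin from the substrate, was highest among the non-ATPases with 15.8, 45.9 and 29.5 FPKM in the ND and 53.3, 49.6 and 54.8 FPKM in the HFD group. These values did not overlap, and neither did those of Psmd4, the lowest, with 435, 112 and 99.3 FPKM in the ND group. Among the assembly factors Psmd5, a chaperone of the ATPase ring, was highest with 8.12, 18.6 and 19.1 FPKM in the ND and 19.9, 21 and 21.8 FPKM in the HFD group, and Psmf1 was lowest with 173, 15.1 and 55.5 FPKM in the ND group. Without ND replicate 1, the log2 fold change of Psma6 turned from -0.58 to 0.08, that of Psmb6 from -0.51 to 0.39 and that of Psmc6 from 0.62 to -0.085, and that of Psmc3 went from -0.83 to -0.0039. The others kept their direction, with 0.34 for Psma1, 0.69 for Psmb5, 0.50 for Psmd14, -0.38 for Psmd4, 0.14 for Psmd5 and -0.80 for Psmf1, and none of the 10 passed in limma in that fit. Of the activators, Psme1 had 54, 85.7 and 48.2 FPKM, Psme2 73.7, 104 and 64 FPKM, Psme3 65.2, 26.9 and 38.4 FPKM and Psme4 40, 26.3 and 38.2 FPKM in the ND group. The ND values overlapped with the HFD values for all 4 activators. Psma8, the germ cell subunit, had 20.5, 0.952 and 7.04 FPKM in the ND group, and Psmc3ip had 85.9, 1.62 and 8.41 FPKM. Both were highest in ND replicate 1, as the germ cell markers were.

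GT was compared with HFD as the second dietary addition. No proteasome gene passed in limma, with 8 of the 48 tested at an unadjusted p under 0.05 (29.3% of all genes), and over all 12766 tested genes 1.83% passed as higher and 1.81% as lower. The median log2 fold change was -0.05 over the proteasome genes and -0.12 over all genes. The chaperone Psmg4 was closest to the threshold, with 13, 13.4 and 15.7 FPKM in the HFD and 10.4, 8.26 and 6.96 FPKM in the GT group (-0.67, SE 0.15, limma adjusted p = 0.0557). Without GT replicate 1 it passed. Psmd4 was highest, with 115, 109 and 101 FPKM in the GT group (0.41, limma adjusted p = 0.0854). Psme2 had 122, 113 and 110.3 FPKM in the GT group (0.28, limma adjusted p = 0.172) and Psmb9 a log2 fold change of 0.25 (limma adjusted p = 0.28). The GT libraries did not overlap with the HFD libraries for Psmg4, Psmd4 and Psme2, and they did for Psmb9. Psme1 was at 74.3, 59.5 and 53.8 FPKM in the GT group and overlapped.

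Of the other extremes of the subcomplexes, Psmd6, Psmg1 and the activator Psme3 did not overlap between the GT and HFD groups. Psme3, the lowest activator, had 32.7, 33.5 and 31.5 FPKM in the GT group, and Psme4, which was also lower without overlap, had 28.3, 26.1 and 27.7 FPKM. In the GT group Psma5 had 56.2, 49.4 and 46.1 FPKM, against 47.7, 45.2 and 41.8 in the HFD group, and Psma6 had 116, 105 and 97.5 FPKM. Psmb4 had 108, 89.6 and 82.3 FPKM, against 98.6, 76.6 and 86.4 FPKM. Psmc1 had 70.9, 73.6 and 72.3 FPKM, against 72.5, 66.3 and 65.2 FPKM, and Psmc4 had 55.1, 58 and 43.6 FPKM. Psmd6, a lid subunit, was lowest among the non-ATPases with 47.9, 36.6 and 34.6 FPKM, against 55.6, 48 and 50 FPKM, and Psmg1 highest among the assembly factors with 18.8, 17.5 and 16.1 FPKM. The values of the alpha, beta and ATPase subunits named here overlapped. In all, 5 proteasome genes (Psma1, Psma3, Psmd4, Psme2 and Psmg1) were higher and 8 lower without overlap, beside 12.3% and 24.4% of all genes.

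The TJ and GT comparisons share the HFD libraries, so TJ was also set against GT directly, a comparison added after the values had been seen. No proteasome gene passed in limma, with 12 of the 47 tested at an unadjusted p under 0.05 (24.6% of all genes), and 0.148% of 12187 tested genes passed in either direction. The groups did not overlap in 13 proteasome genes that were higher and 6 that were lower in the TJ group, beside 19.5% and 14.9% of all genes. Psmg4 had the highest log2 fold change, 1.07 (SE 0.22, limma adjusted p = 0.1), Psmb9 had 0.87 (limma adjusted p = 0.121) and Psme1 had 0.80 (limma adjusted p = 0.117). The TJ values of all 3 lay above the GT values.

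The genes around the proteasome were described from lists of its partners, its transcriptional control, MHC class I presentation and the response to interferon gamma. Of 12 tested genes of MHC class I presentation, 3 passed as higher in the TJ than in the HFD group and 0 as lower, beside 7.41% and 11.1% of all genes. They were Tap2 (0.85, limma adjusted p = 0.0261), Tap1 (0.80, limma adjusted p = 0.023) and Nlrc5 (0.73, limma adjusted p = 0.0248), the peptide transporter and a transactivator of MHC class I genes. The median log2 fold change of the list was 0.35, with 8 positive and 4 negative values. Without overlap, 7 genes were higher and 3 (Canx, Calr and Pdia3) lower in the TJ group, beside 20.1% and 31.4% of all genes. Tap1 had 18.8, 18 and 16.7 FPKM in the HFD and 29.3, 35 and 31.1 FPKM in the TJ group. Its GT values were 25.3, 21.1 and 17.1 FPKM and its ND values 2.78, 18.4 and 18.9 FPKM, so that, as for Psmb9, every TJ value lay above all other libraries. Psmb9 overlaps the start of Tap1, so the values of these genes may share fragments. B2m, the light chain of MHC class I, had 1796, 1966 and 1978 FPKM in the HFD and 2356, 2105 and 2663 FPKM in the TJ group and did not pass (limma adjusted p = 0.183).

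Of 20 tested genes of the interferon gamma response, 9 passed as higher and 1 as lower in the TJ than in the HFD group. Over all genes, 7.41% passed as higher and 11.1% as lower. The median of the list was 0.60. The guanylate-binding protein gene Gbp4 had the largest log2 fold change, 1.75 (limma adjusted p = 0.0196), and the kinase gene Jak1 was the 1 that passed as lower (-0.82, limma adjusted p = 0.0393). Ifng itself did not exceed 0.288 FPKM in any library. In GT against HFD, 0 genes of both lists passed in limma, with 7 of 12 tested genes of presentation and 6 of 19 of the interferon gamma response at an unadjusted p under 0.05, where all genes gave 29.3%. In HFD against ND, 0 passed. Those under 0.05 were H2-K1, Tapbp and Pdia3 of 12 tested genes of presentation and Ciita and Ifngr2 of 21 of the interferon gamma response. Each had a positive value, where all genes gave 11.6%. These lists were read only with ND replicate 1, which held the lowest sum of both. The interferon gamma list summed to 127, 494 and 420 FPKM in the ND and 403 to 463 FPKM in the HFD group. The presentation list summed to 1628, 4049 and 3029 FPKM in the ND and 4907 to 5326 FPKM in the HFD group.

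Of the 23 partners of the proteasome and genes of the ubiquitin system, 1 passed as higher in the TJ than in the HFD group and 2 as lower. Over all genes, 7.41% passed as higher and 11.1% as lower. Pomp, which matures the core and favours the assembly of the immunoproteasome, had 144, 119.9 and 116 FPKM in the HFD and 202, 208 and 165 FPKM in the TJ group (0.59, limma adjusted p = 0.043). Those that passed as lower were the ubiquitin ligases Ube3a (-1.01, limma adjusted p = 0.0259) and Ube3c (-0.69, limma adjusted p = 0.0346). Of the 10 genes of transcriptional control, 0 passed in limma, with 5 (Ddi2, Stat3, Nfe2l2, Mafk and Foxo4) at an unadjusted p under 0.05. This is near the 41.4% of all genes. Nfe2l1, the factor that induces the standard subunits when proteasome activity is short, had 186, 223 and 222 FPKM in the HFD and 175, 160.0 and 180.2 FPKM in the TJ group (-0.29, limma adjusted p = 0.162). In HFD against ND and in GT against HFD, 0 genes of both lists passed in limma. An unadjusted p under 0.05 was reached by Ngly1 in the former, where 11.6% of all genes reached it. In the latter it was reached by Ube3c, Uba1, Ecpas, Ubqln2, Nfe2l2, Ddi2 and Foxo4, beside 29.3% of all genes.

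Markers of cell types that the tissue can hold were read beside these values. Of the 8 adipocyte markers, 6 passed as higher in the TJ than in the HFD group, with Cfd at 3.36 (limma adjusted p = 0.0248), Adipoq at 1.46 (limma adjusted p = 0.022) and Cidec lowest of the 6 at 0.70 (limma adjusted p = 0.0492). Pnpla2 (0.64, limma adjusted p = 0.135) and Lep (-0.96, limma adjusted p = 0.111) did not pass, and every TJ value of Lep lay below every HFD value. The 5 erythroid markers summed to 303, 287 and 481 FPKM in the HFD and 618, 1169 and 398 FPKM in the TJ libraries, and 0 passed in limma, with Hbb-bs at an unadjusted p under 0.05. Within the TJ group, the adipocyte and the erythroid sums were highest in TJ replicate 2. The 10 macrophage markers were all lower in the TJ than in the HFD group, 8 of them passing, and summed to 4229, 3137 and 4444 FPKM in the HFD, 2898, 2546 and 1264 in the GT and 2285, 739 and 1926 FPKM in the TJ libraries. They were lowest in TJ replicate 2, the library with the highest Psmb9. The 9 T cell markers summed to 6.81 to 11 FPKM in the HFD and 11.2 to 13.5 FPKM in the TJ group, and 1 of the 3 that were tested passed as higher, Lck (0.87, limma adjusted p = 0.0432). Trac, the T cell marker with the highest level, had 6.5, 7.14 and 3.5 FPKM in the HFD and 3.21, 4.12 and 4.61 FPKM in the TJ group, overlapped and did not pass (-0.39, limma adjusted p = 0.267). The 6 NK cell markers summed to 6.19 to 9.34 and 8.92 to 12.5 FPKM, and Nkg7 passed as higher (0.60, limma adjusted p = 0.0436). The 6 dendritic cell markers summed to 11.6 to 15.1 FPKM in the HFD and 17.2 to 24.8 FPKM in the TJ group, and the 6 B cell markers to 7.28 to 10.4 and 6.17 to 9.98 FPKM, with Cd22 passing as lower, Cd79a (0.67) and Cd79b (0.54) not passing and Ms4a1 listed at 0 in every library. The 6 endothelial markers summed to 281 to 311 FPKM in the HFD and 454 to 695 FPKM in the TJ group, and 2 of them passed as higher, Cldn5 and Emcn. Of the 6 fibroblast and progenitor markers, 3 passed as lower, Col1a1, Pdgfra and Col3a1. The 6 mesothelial markers that were tested all had a negative log2 fold change, with a median of -0.65, and Wt1 passed as lower (-0.85, limma adjusted p = 0.0435). The part of any of these cells in the values of Psmb9, Psme1 and Psme2 was not tested.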

How the data were processed

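The authors filtered the reads on base quality, aligned them by STAR (2.4.0 in the submitters' processing notes) to an Ensembl release 72 reference, and derived the deposited FPKM values by Cufflinks 2.1.1, masking noncoding regions and correcting for multireads and fragment bias. A human genome is named in the paper's methods, whereas all 23474 identifiers were of the mouse. GENCODE mouse release 21 (GRCm38) gave symbols for 22671 of them and transcript lengths. Depth was approximated from the smallest steps of FPKM in 2315 genes with a single transcript, without counting intervals, so the precision of a value is that of the 3 mice of its group.

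The comparisons used limma 3.58.1 (R 4.3.3) on log2(FPKM + 1), with the 6 libraries of a comparison, no covariates and a mean of at least 1 FPKM, and p-values were adjusted over all tested genes by Benjamini-Hochberg. A fold change is on this scale and understates that of low genes. Exact permutation tests used scipy 1.17.1. The planned test of Psmb10 to Psmb7 could not be made, since Psmb10 is listed at 0, which left 6 ratio tests in place of 9. On simulated data with 12557 genes, modelled on TJ against HFD, limma called 88 of 100 genes changed 4-fold, 56 of 100 changed 2-fold and 15 unchanged genes.

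The members, the gene lists and the tests were chosen with earlier results of these data known. Named are the catalytic subunits and their partners, the activators, the tissue-specific subunits, the extremes of each subcomplex in each comparison, the genes that passed, and from each list its first gene and the extremes among those that passed. Names outside this rule, such as Psmd11, Psmg2 and the genes listed at 0, were chosen with their values in view. The alternatives were other pseudocounts (0.1 and 0.01), filters, scalings, weights, the variance prior, removal of the length trend, the threshold, a fit of all 12 libraries, a block for the replicate number, and each library left out. The deviations of the HFD and ND libraries correlated at 0.547, 0.342 and 0.122 for the numbers 1 to 3. HFD replicate 3 and ND replicate 2, of different numbers, reached 0.626. Nothing shared by a number is named, so a pairing by number is not shown. No alternative for the sequence windows was run. For 1 gene of the interferon gamma list, planned values are not reported here.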

Additional observations from a re-analysis of the deposited data

How the results depend on the processing

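With 3 mice per group, an exact test of 3 against 3 cannot go below p = 0.1. In TJ against HFD, where 6 proteasome genes passed as higher and 2 as lower, the counts were 6 and 1 with a pseudocount of 0.1 or 0.01 and with a mean of at least 5 FPKM, 7 and 1 with median-of-ratios scaling, 6 and 0 with quantile normalization, 3 and 1 without the mean-variance trend, 2 and 0 with array weights (whose estimation stopped before convergence in every comparison), 1 and 4 with the length trend removed, 7 and 4 without a fold limit, and 0 and 0 without a filter (19 proteasome genes at an unadjusted p under 0.05 in limma) and with all 12 libraries in the fit (8 genes). With the replicate number as a block, which does not pair these libraries (same-number correlations of -0.03, -0.05 and 0.23), they were 1 and 0. Leaving out each library gave 0 to 9 higher and 0 to 3 lower. Without HFD replicates 1 and 2, chosen after seeing the data, 1 HFD library is left, which is assumed to vary like the TJ group, and the counts of 0 (4 genes at an unadjusted p under 0.05) say nothing of stability. Of the 18 alternatives other than this, Psmb9 passed in 12 and Psmd4 in 9, and the other genes that passed did so in 6 to 8. The counts of this section stand without the share of all genes that passed in each fit. They show only how the calls moved.

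The median of all genes moved from -0.14 to -0.02 with median-of-ratios scaling and to 0.03 with quantile normalization. Psmb6 turned to -0.022 and Psmb2 to -0.14 with the length trend removed. The replicate numbers are not shown to pair the HFD and ND libraries, as the highest correlation joined HFD replicate 3 and ND replicate 2 (0.626). In HFD against ND, the block kept both counts at 0, with 3 genes at an unadjusted p under 0.05 in limma. Array weights gave 8 higher and 3 lower there, the length trend removed 1 higher, and leaving out each library 0 to 1 higher and 0 lower. A fit without ND replicate 1 and HFD replicates 1 and 2, also chosen after seeing the data, sets 1 HFD library against 2 ND libraries and is read no further. Psmb5 (0.24) turned to -0.089 without ND replicate 3 and was 0.69 without ND replicate 1. In GT against HFD, whose numbers correlated at 0.20, 0.05 and -0.07, the block kept 0, and 1 gene, Psmg4, passed as lower with a mean of at least 5 FPKM, with array weights and without GT replicate 1 (0 to 1 when each library was left out). In TJ against GT, array weights gave 5 higher and 2 lower and the other alternatives 0.

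The Psmb8 to Psmb5 difference between TJ and HFD (-0.05) turned to 0.089 with the mean of the 14 alpha and standard beta subunits as the denominator and ranged from -0.23 to 0.089 when each library was left out. The Psmb9 to Psmb6 difference between HFD and ND ranged from -0.29, without ND replicate 1, to 1.35. The Psmb9 to Psmb6 difference between TJ and HFD was 0.77 to 0.90 over all its alternatives, with an exact sign-flip p of 0.25 under the replicate block, the smallest that 3 pairs allow. The causes were not tested.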
